A study of Pinus pinaster with 18 samples.

Results

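The first developmental step of maritime pine (*Pinus pinaster*) embryos was compared between somatic and zygotic embryos, in 12 libraries of the 18 of the series, 3 for each of 4 stages. The somatic step runs to the precotyledonary opaque stage ES2, collected after 6 to 10 weeks on maturation medium, and starts at the early translucent stage ES1, collected after 4 to 6 weeks. The zygotic step runs to the early cotyledonary stage EC and starts at the pre-cotyledonary stage PC. Each transcript was given 3 values: the log2 change of the somatic step (ES2 minus ES1), the log2 change of the zygotic step (EC minus PC), and their difference, the interaction, which is positive where the somatic change lies above the zygotic one. A transcript entered the tests when it was above 2 CPM (CPM is the count scaled to a common library total) in at least 3 of the 12 libraries, which 23857 of 287424 transcripts were.

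The somatic embryos all came from 1 embryogenic line, PN519, and matured in darkness at 24 °C. Their medium held 9 g/L phytagel, 68 g/L sucrose and, as hormone, 80 µM abscisic acid. The zygotic embryos were excised from developing seeds of 1 seed orchard and had no culture or added hormone. Embryo type, genotype, culture and harvest therefore cannot be told apart, and the steps need not cover equal lengths of development. Whether the 3 libraries of a group are separate biological samples or technical replicas is not clear from the labels and the study's methods. The p-values measure no more than the spread between these libraries, which may be technical.

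During this phase a conifer embryo leaves the cell divisions that built it, lays out shoot and root poles, and begins to fill with storage reserves. Late embryogenesis abundant (LEA) proteins, small hydrophilic proteins linked to tolerance of water loss, and storage proteins such as vicilins build up as seeds mature. Abscisic acid, which somatic embryos receive from the medium and zygotic embryos from seed tissues, is known to induce many of these genes, and sugar supply and osmotic pressure act beside it.

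Transcripts that changed clearly in both steps mostly moved in the same direction. In edgeR's quasi-likelihood test, with calls at a p below 0.05 after Benjamini-Hochberg adjustment and a change beyond 1 on the log2 scale in either direction, 2182 transcripts rose (9.15% of those tested) and 2484 fell (10.4%) in the somatic step, together 19.6%. In the zygotic step 1424 rose (5.97%) and 811 fell (3.4%), together 9.37%. Of 1347 transcripts called in both steps, 1315 (97.6%) went the same way, 807 up and 508 down. The rises in common made up 37.0% of the somatic rises and 56.7% of the zygotic rises, and the falls in common 20.5% of the somatic falls and 62.6% of the zygotic falls. Across all tested transcripts the changes of the 2 steps had the same sign in 72.0% and correlated with a Pearson r of 0.518 and a Spearman rho of 0.595, as a description, since transcripts of the same libraries are not independent. In whole embryos, fewer cells of a type and less RNA per cell cannot be told apart.

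The interaction was called in 1251 transcripts (5.24% of those tested), higher in 480 (2.01%) and lower in 771 (3.23%). The larger group of these, 959, was called in 1 step only. Of them, 259 were called as somatic rises, 108 as zygotic falls, 486 as somatic falls and 106 as zygotic rises. The other step missed its call but need not be unchanged: in 369 of the 486 the zygotic change had the same sign as the somatic fall. A further 129 went the same way in both steps by different amounts, and 131 were called in neither step. The remaining 32 (0.134% of those tested) were called in opposite directions, 25 of them up in somatic and down in zygotic embryos and 7 the other way. The split of the calls moved with the scaling of the libraries: 24.6% of the interaction calls were higher when only library size was used, against 38.4% with TMM factors, and 28.7% of the somatic calls were rises, against 46.8%.

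**Figure D1:**
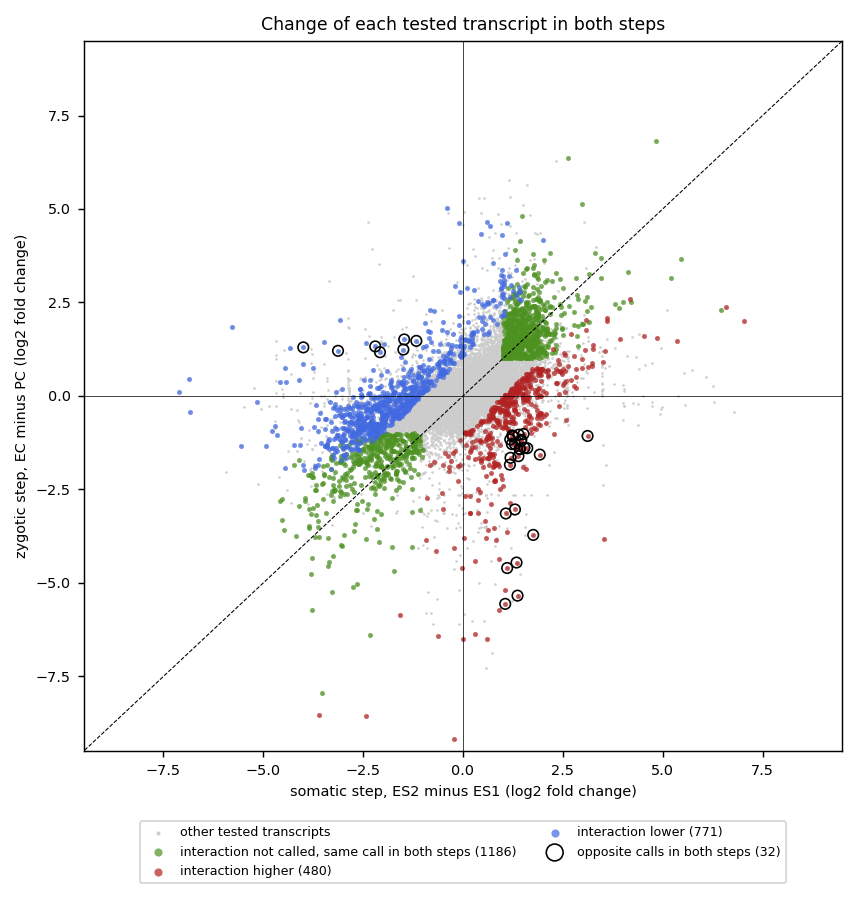
Log2 change of every tested transcript in the somatic step (x axis) and in the zygotic step (y axis), with the 1186 transcripts called the same way in both steps and not in the interaction in green, the 480 with a higher interaction in red, the 771 with a lower one in blue, and the 32 with opposite calls ringed. The green points lie along the dashed line of equal change, and the rings lie in the upper left and lower right; values of transcripts with no count in a group depend on the fit's prior count.

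Library totals were 22725467 to 40755797 counts, with 99.86 to 99.9% of them in the tested transcripts. TMM factors were 0.8208 to 0.8848 in ES2 and 0.9793 to 1.02 in ES1, against 1.027 to 1.08 in EC and 1.097 to 1.13 in PC. The median log2 change over all tested transcripts was 0.035 in the somatic step, -0.0056 in the zygotic step and -0.013 for the interaction, and with library size alone these were -0.187, -0.0938 and -0.157. Transcripts that mark embryos were present in every library: the 66 tested members of a list of LEA and seed maturation proteins summed to 15100 to 17200 CPM in ES2 and 8980 to 9750 CPM in ES1, and to 4380 to 4890 CPM in EC and 3720 to 4080 CPM in PC. The 6 tested organelle-encoded and photosynthesis transcripts summed to 30.8 to 56.4 CPM in ES2, 22.2 to 39.5 in ES1, 28.2 to 92.8 in EC and 25.5 to 116 in PC, and none was called. From here on, CPM values are TMM-scaled, protein names are matches in other species taken from the study's tables of module and hub genes, which were built from these samples, and 1624 tested transcripts have an informative name. No genome positions were used here.

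The transcripts with opposite calls included LEA proteins, an asparagine synthetase and an ACC synthase on the somatic side, and no named transcript on the zygotic side. A LEA7-1-like transcript (ppt_251913) had 163, 245 and 163 CPM in ES2, against 71.6, 70.7 and 65.1 CPM in ES1. In zygotic embryos it had 5.80, 6.34 and 7.16 CPM in EC, against 14.8, 18.6 and 10.3 CPM in PC. Neither pair of stages overlapped, so that the level was higher at ES2 than at ES1 in all 3 libraries and lower at EC than at PC in all 3. The somatic change was 1.46 ± 0.20 (log2, ± SE; edgeR adjusted p = 0.000141), the zygotic change -1.18 ± 0.21 (adjusted p = 0.00239) and the interaction 2.64 ± 0.29 (adjusted p = 0.000283). Without PC replicate 2 the zygotic change was -0.96 (adjusted p = 0.00956), just short of the fold threshold. Its neighbours in the numbering, ppt_251911 and ppt_251912, have no name and showed the same pattern with interactions of 2.66 and 2.59, and reads may be split among them.

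A putative asparagine synthetase (ppt_51012), an enzyme that forms asparagine, a main carrier of stored and transported nitrogen in conifers, had 55.4, 59.2 and 61.2 CPM in ES2, against 23.2, 28.1 and 24.1 CPM in ES1. It had 0.434, 0.437 and 0.692 CPM in EC, against 1.45, 1.35 and 1.08 CPM in PC. The libraries of each step were again fully apart, at levels far lower in the zygotic embryos. The interaction was 2.51 ± 0.26 (edgeR adjusted p = 0.000174), and the opposite calls were kept when any 1 of the 12 libraries was left out. A LEA transcript matched to white spruce (ppt_115979) had 78.3, 65.8 and 64.5 CPM in ES2, against 21.8, 21.4 and 18.5 CPM in ES1. Its zygotic libraries held almost none of it, with 0.0789, 0 and 0 CPM in EC, against 0.309, 0.197 and 0.388 CPM in PC. The fall in zygotic embryos was therefore a fall between traces, while the somatic rise was 3.38-fold. Its interaction was called (edgeR adjusted p = 0.000523), and with the counts of the 17 tested transcripts of this name summed the interaction was 0.59 (adjusted p = 0.0343), below the fold threshold.

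Low zygotic levels were common in this class. Of the 25 transcripts that rose in somatic and fell in zygotic embryos, 11 (44.0%) stayed under 2 CPM on average in both EC and PC, against 10.9% of all tested transcripts. An ACC synthase (ppt_100303), which makes the precursor of ethylene, had 6.27, 7.93 and 4.78 CPM in ES2, against 2.98, 1.5 and 3.02 CPM in ES1, and no count in EC, against 0.0617, 0.132 and 0.0554 CPM in PC. PC stood at least 2.81-fold above a floor of 3 counts over the EC libraries, and the opposite calls were lost in 5 of the 12 fits that left out 1 library (without ES2 replicate B, ES1 replicate B, EC replicate 2, EC replicate 3 or PC replicate 2). The transcript with the highest level in ES2 among the opposite calls, ppt_72001, singled out after its values were seen, has no name. It had 651, 748 and 529 CPM in ES2, against 96.6, 73.3 and 51.6 CPM in ES1, and 123, 112 and 217 CPM in EC, against 283, 333 and 331 CPM in PC. It was high in both embryo types, and its levels crossed: ES1 lay below PC and ES2 above EC. Its interaction was 4.19 (edgeR adjusted p = 9.8e-05), but its zygotic change missed the threshold without EC replicate 1 (-0.94, adjusted p = 0.0538) or EC replicate 2 (-0.89).

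The 7 transcripts that fell in somatic and rose in zygotic embryos all lack a name. The most abundant of them, ppt_54455, had 0.363, 0.253 and 0 CPM in ES2, against 0.662, 0.871 and 1.31 CPM in ES1, and 57.9, 58.3 and 95.6 CPM in EC, against 24.8, 27.6 and 32.2 CPM in PC. It was a zygotic transcript with traces in somatic embryos, as were its near neighbours in the numbering ppt_54454 and ppt_54460. Somatic levels were under 2 CPM in both stages in 4 of the 7, against 6.68% of all tested transcripts. Of the 32 transcripts with opposite calls, 31 had no overlap between the libraries of either step. The 32 were picked by calls on these same libraries, so this separation adds no support. Of the 32, 11 kept both calls and the interaction in each of the 12 fits that left out 1 library. The number that rose in zygotic embryos depended on single libraries: it was 3 without EC replicate 3, 13 without PC replicate 3 and 11 without ES2 replicate C.

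**Figure D2:**
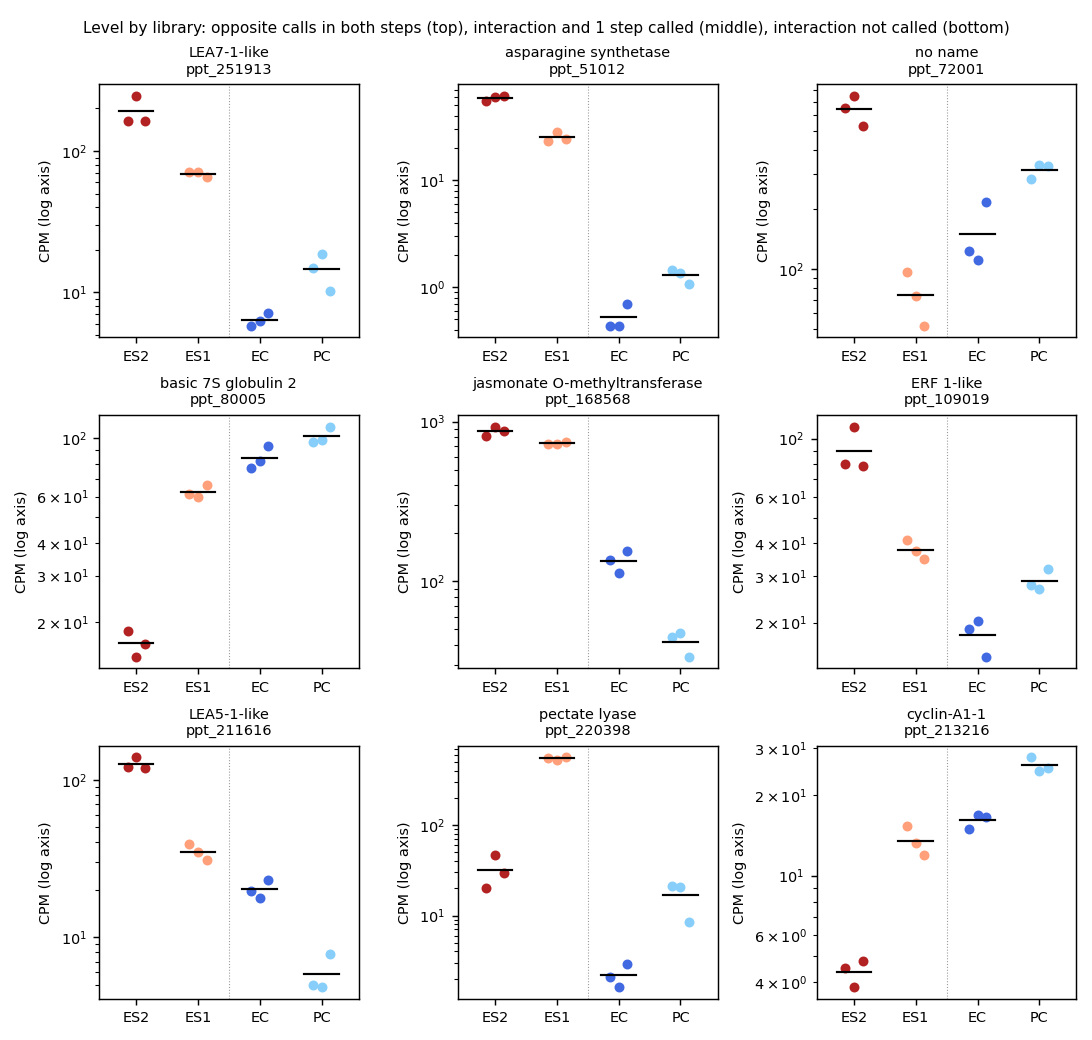
CPM (log axis) of 9 transcripts in each library, with 3 points and a bar for the mean in ES2, ES1, EC and PC. In the top panels ES2 lies above ES1 and EC below PC; in the middle panels the interaction and 1 step were called; in the bottom panels a LEA5-1-like transcript rose in both steps, a pectate lyase fell in both, and cyclin-A1-1 was called in the somatic step without a called interaction.

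Nitrogen metabolism held the largest share of interaction calls among 15 keyword lists. Of 42 tested transcripts of nitrogen, amino acid and polyamine metabolism, 14 (33.3%) had a higher interaction and 0 a lower one, against 2.01% and 3.23% of all tested transcripts. The list's median interaction was 0.93, against -0.013 for all tested. In the somatic step 2 members rose and 1 fell (4.76% and 2.38%, against 9.15% and 10.4% of all tested). In the zygotic step 0 rose (against 5.97% of all tested) and 11 fell (26.2%, against 3.4%). Without ES2 replicate C, 5 members rose in the somatic step, and 4 did so without ES2 replicate A, ES1 replicate B or ES1 replicate C. With library size alone 11 interactions were higher and 2 lower. All 11 zygotic falls were asparagine synthetases, which also made up 11 of the 14 interaction calls. Their means were 0.0162 to 0.877 CPM in EC and 0.274 to 4.36 CPM in PC. Most of the 11 lay under 2 CPM in zygotic embryos and passed the CPM minimum through the somatic libraries. Of the 11, 10 carry the same name and consecutive identifiers, so that they may be parts or copies of 1 gene among which reads were split. Summed over the 16 tested asparagine synthetases, ES2 libraries had 759, 882 and 765 CPM, against 411, 414 and 454 CPM in ES1, and EC libraries had 5.76, 4.37 and 4.5 CPM, against 20.2, 21.7 and 18.1 CPM in PC. The sum was higher at ES2 in every somatic library and lower at EC in every zygotic one. For the 10 of 1 name counted as a single feature the interaction was 3.07 (edgeR adjusted p = 4.06e-05). The member named by rule, ppt_140063, had 139, 150 and 148 CPM in ES2, against 75.5, 76.9 and 76.5 CPM in ES1, a change of 0.93 ± 0.14 that missed the fold threshold, and 1.14, 0.680 and 0.586 CPM in EC, against 4.51, 4.77 and 3.77 CPM in PC, a change of -2.48 ± 0.19 (adjusted p = 1.7e-05). With the ES3 and C libraries also in the fit, 4 asparagine synthetases had a called interaction, in place of 11. The other 3 calls were 2 spermidine synthases, which make the polyamine spermidine, with interactions of 1.10 and 1.12, and a cationic amino acid transporter with 1.12.

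LEA proteins were split between shared and differing changes. Of the 66 tested members of the LEA and seed maturation list, 24 rose and 2 fell in the somatic step, and 6 rose and 8 fell in the zygotic step. Somatic rises were 36.4% of the list, against 9.15% of all tested transcripts, and zygotic falls 12.1%, against 3.4%. Somatic falls were 3.03%, against 10.4%, and zygotic rises 9.09%, against 5.97%. The interaction was higher in 8 members (12.1%, against 2.01% of all tested) and lower in 0, and the median interaction was 0.55. Of these 8, 7 carry 1 white spruce name, with means of 0.0263 to 0.396 CPM in EC and 0.2 to 3.14 CPM in PC. Most of the 7 lay under 2 CPM in zygotic embryos and passed the CPM minimum through the somatic libraries. The summed list was higher in every EC library (4380 to 4890 CPM) than in any PC library (3720 to 4080 CPM). With library size alone 16 rose in the somatic step, and with the ES3 and C libraries also in the fit the higher interactions were 4. The 6 zygotic rises were all rises in the somatic step as well, and 4 of them were the 4 tested LEA5-1 transcripts. The LEA5-1 transcript named by rule (ppt_211616) had 121, 139 and 120 CPM in ES2, against 39.0, 34.7 and 30.8 CPM in ES1, and 19.6, 17.6 and 23.1 CPM in EC, against 4.94, 4.80 and 7.84 CPM in PC. Its changes of 1.86 and 1.77 differed by 0.09, with a 95% interval of -0.46 to 0.64 and an edgeR adjusted p of 0.895. The second LEA transcript picked from the list, ppt_93454, carries the same white spruce name as ppt_115979. It had 125, 135 and 142 CPM in ES2, against 66.3, 71.8 and 53.1 CPM in ES1, and 0.118, 0.170 and 0.160 CPM in EC, against 1.27, 1.45 and 1.44 CPM in PC. Its interaction was 4.22 ± 0.26 (adjusted p = 2.3e-05), and its somatic rise fell to 0.97 without ES1 replicate C.

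Storage and oil body proteins showed shared rises of vicilins. All 3 tested vicilin-like transcripts and both tested transcripts of the name 7S globulin, seed storage proteins of 1 superfamily, rose in both steps. Together the vicilins had 69.1, 85.2 and 79.0 CPM in ES2, against 31.6, 29.2 and 35.3 CPM in ES1, and 28.3, 22.7 and 25.2 CPM in EC, against 7.62, 8.85 and 5.09 CPM in PC. The 10 tested caleosins, proteins of the oil body surface, were called in neither step, with changes of -0.01 to 0.17 in the somatic step and 0.59 to 1.04 in the zygotic step. Of all 22 tested members of the list 5 rose and 1 fell in each step (22.7% rose, against 9.15% and 5.97% of all tested in the somatic and zygotic step), 1 had a higher and 2 a lower interaction (13.6% called, against 5.24%), and the median interaction was -0.61. The falls were 4.55% of the list in each step, against 10.4% of all tested in the somatic and 3.4% in the zygotic step. With library size alone 1 member rose in the somatic step. A basic 7S globulin 2 (ppt_80005), named for a legume seed protein, was among the lower ones, with 18.5, 14.7 and 16.5 CPM in ES2, against 61.1, 59.6 and 66.3 CPM in ES1, and 76.7, 81.9 and 93.5 CPM in EC, against 96.8, 98.3 and 111 CPM in PC. It fell in the somatic step by 1.91 on the log2 scale while the zygotic change was -0.28, and the interaction was -1.63 ± 0.16 (edgeR adjusted p = 0.000144). The 2S globulin (ppt_123612) had a higher interaction of 2.73 at an adjusted p of 0.0479, with at most 2.27 CPM in any zygotic library, and lost the call in 10 of the 12 fits that left out 1 library, with adjusted p values of up to 0.134 (without EC replicate 3).

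More defence proteins fell than rose in the zygotic step. Of 85 tested pathogenesis-related proteins and chitinases, 1 rose and 7 fell in the somatic step, 1 rose and 17 fell in the zygotic step, and the interaction was higher in 6 and lower in 0, with a median of 0.57. Called interactions were 7.06% of the list, against 5.24% of all tested transcripts, and zygotic falls 17 of 85, against 3.4% of all tested. Somatic rises were 1.18% and somatic falls 8.24%, against 9.15% and 10.4% of all tested, and zygotic rises 1.18%, against 5.97%. The zygotic levels of the list were low, with summed values of 113 to 150 CPM in EC and 193 to 286 CPM in PC. In somatic embryos the sums were 3290 to 4670 CPM in ES2 and 3570 to 4140 CPM in ES1. Thaumatin-like protein L6 (ppt_53320), of a family with antifungal members, had 103, 106 and 102 CPM in ES2, against 66.9, 70.1 and 66.8 CPM in ES1. It had 0.197, 0.291 and 0.266 CPM in EC, against 0.741, 0.921 and 0.803 CPM in PC. The groups did not overlap in either step, and the interaction was 2.26 ± 0.20 (edgeR adjusted p = 9e-05). A class IV chitinase (ppt_110024) had 16.6 to 25.4 CPM in ES2 and 23.5 to 28.4 CPM in ES1, which overlapped, and at most 0.106 CPM in EC against 0.494 to 0.914 CPM in PC. Ginkbilobin-2 (ppt_126365), an antifungal seed protein first known from Ginkgo, had 25.8, 26.7 and 22.5 CPM in ES2, against 11.1, 13.9 and 11.0 CPM in ES1, and 0.237, 0 and 0 CPM in EC, against 3.06, 3.65 and 0.277 CPM in PC. The somatic change of ginkbilobin-2 was 1.06 at an adjusted p of 0.179, and only its zygotic fall and the interaction (adjusted p = 0.00805) were called. A basic endochitinase B (ppt_220543) had a mean of 73.9 CPM in ES2 and 34.7 CPM in ES1, with at most 0.679 CPM in any zygotic library, and its interaction call (adjusted p = 0.0351) was lost in 8 of the 12 fits that left out 1 library, down to an adjusted p of 0.172 without PC replicate 1. All 4 tested defensin-1 transcripts of this list fell in both steps.

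Among the largest higher interactions with 1 called step, 3 further named transcripts were near 0 in zygotic embryos. Purple acid phosphatase (ppt_126274), of a family of phosphate-releasing enzymes, had 33.7, 38.4 and 31.8 CPM in ES2 and 35.9, 31.1 and 37.7 CPM in ES1, which overlapped, and 0.0789, 0 and 0 CPM in EC, against 0.494, 0.395 and 0.775 CPM in PC (interaction adjusted p = 0.00185 by edgeR). MYB30 (ppt_241345), a transcription factor name of the MYB family, had 22.0, 24.0 and 19.6 CPM in ES2, against 10.2, 13.6 and 11.4 CPM in ES1, and no count in EC, against 0.309, 0.0658 and 0.222 CPM in PC. PC was at least 7.02-fold above a floor of 3 counts over the EC libraries, and the interaction had an adjusted p of 0.00338. Cytochrome P450 CYP750A27v2 (ppt_100065) had at most 0.370 CPM in any zygotic library and lost its call (adjusted p = 0.0491) in 10 of the 12 fits that left out 1 library, with 0.244 without PC replicate 1. Among the 108 transcripts with a higher interaction and only the zygotic fall called, 47 (43.5%) were under 2 CPM in both zygotic stages. Of the 259 with only the somatic rise called 27 (10.4%) were, and of all tested transcripts 10.9%.

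Among hormone genes, the interaction was higher in 3 of 9 ACC synthases and lower in 6 of 6 jasmonate O-methyltransferases. Of 67 tested hormone transcripts, 3 had a higher and 7 a lower interaction (14.9% called, against 5.24% of all tested), and the median interaction was 0.28. In the somatic step 10 rose and 3 fell (14.9% and 4.48%, against 9.15% and 10.4% of all tested). In the zygotic step 7 rose and 4 fell (10.4% and 5.97%, against 5.97% and 3.4%). The 3 higher interactions were in ACC synthases, the 9 of which ranged from -1.09 to 5.80. Without PC replicate 2 the list had 1 higher interaction and without PC replicate 3 it had 6. All 9 together had 54.4, 65.5 and 47.7 CPM in ES2, against 28.4, 21.9 and 28 CPM in ES1, and 7.73, 6.82 and 4.95 CPM in EC, against 8.58, 10.0 and 5.81 CPM in PC. The somatic libraries were apart and the zygotic ones overlapped. The somatic rises of the list also leaned on single libraries, with 6, 3 and 5 in place of 10 without ES2 replicate A, ES2 replicate B and ES1 replicate B, where the falls were 5, 6 and 5 in place of 3. The somatic counts were 3 and 10 with library size alone. Of the ACC synthases 5 rose in the somatic step, and 0 did so without ES2 replicate B or ES1 replicate B.

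All 6 tested jasmonate O-methyltransferases, which form methyl jasmonate, had a lower interaction, between -1.47 and -1.34. Summed, they had 3560, 4450 and 3860 CPM in ES2, against 3260, 3260 and 3560 CPM in ES1, and 642, 489 and 677 CPM in EC, against 190, 227 and 150 CPM in PC. The zygotic level was higher in every EC library than in any PC library and still under every somatic library. The transcript named by rule, ppt_168568, rose in the zygotic step by 1.69 ± 0.14 on the log2 scale (edgeR adjusted p = 3.5e-05) with a somatic change of 0.26 ± 0.14 (adjusted p = 0.165). The interaction of this transcript was -1.43 ± 0.20 (adjusted p = 0.0012). The 6 share 1 name and 4 of them have consecutive identifiers, so that they may be parts or copies of 1 gene among which reads were split. They made up 6 of the 7 lower interactions and 6 of the 7 zygotic rises of the hormone list, whose shares of calls lean on them. The remaining lower one was an auxin efflux carrier (ppt_257564), with a mean of 1.12 CPM in ES2 and 2.25 CPM in ES1, and 7.86 CPM in EC and 3.15 CPM in PC.

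By count of transcripts, ethylene-responsive factors formed the largest family of transcription factors with differing changes. Of 130 tested transcription factors 12 had a higher and 3 a lower interaction (11.5% called, against 5.24% of all tested), and 30 rose and 9 fell in the somatic step against 16 and 7 in the zygotic step. Somatic rises were 23.1% of the list, against 9.15% of all tested, and somatic falls 6.92%, against 10.4%. Zygotic rises were 12.3%, against 5.97%, and zygotic falls 5.38%, against 3.4%. The somatic counts were 19 and 23 with library size alone. The list's median interaction was 0.09, and -0.056 with library size alone. Without PC replicate 3 the lower interactions were 10, without ES2 replicate A the somatic falls were 15, and without PC replicate 2 the zygotic falls were 4. An ethylene responsive factor 1-like transcript (ppt_109019) had 79.9, 111 and 78.3 CPM in ES2, against 41.4, 37.4 and 34.8 CPM in ES1, and 19, 20.2 and 14.9 CPM in EC, against 27.8, 26.9 and 31.9 CPM in PC. It lay higher at ES2 in every somatic library and lower at EC in every zygotic one, with a zygotic change of -0.68 that missed the fold threshold, and the interaction was 1.93 ± 0.23 (edgeR adjusted p = 0.000393). Of the 14 tested ethylene-responsive factors 5 had a higher interaction, with identifiers between ppt_109017 and ppt_109022, and 1 a lower one, an ERF 1A-like transcript (ppt_68794) with 0.540 CPM in EC and 0.0185 CPM in PC on average. Without PC replicate 3 the lower ones were 5. The 5 with a higher interaction may be parts or copies of 1 gene among which reads were split. The other higher ones were 3 basic helix-loop-helix transcripts, 2 NAC domain transcripts, MYB30 and 1 LHW-like transcript. The 3 basic helix-loop-helix transcripts have consecutive identifiers, ppt_69104 to ppt_69106, and may also be parts or copies of 1 gene. The basic helix-loop-helix transcript ppt_69105 had 34.9, 28.2 and 34.0 CPM in ES2, against 13.4, 14.4 and 13.5 CPM in ES1, with 38.8 to 45.1 CPM in EC and 37.2 to 47.1 CPM in PC, so that the somatic libraries were apart and the zygotic ones overlapped (interaction 1.23 ± 0.17, adjusted p = 0.00138). The other 2 lower ones were the FT-like transcripts, of a family that holds flowering signals in Arabidopsis. The keyword list took them in, although FT-like proteins are not themselves transcription factors. Of these 2, ppt_247234 fell in both steps and by more in the somatic one. It had a mean of 11.1 CPM in ES2 and 115 CPM in ES1, and 2.95 CPM in EC and 6.81 CPM in PC.

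**Figure D3:**
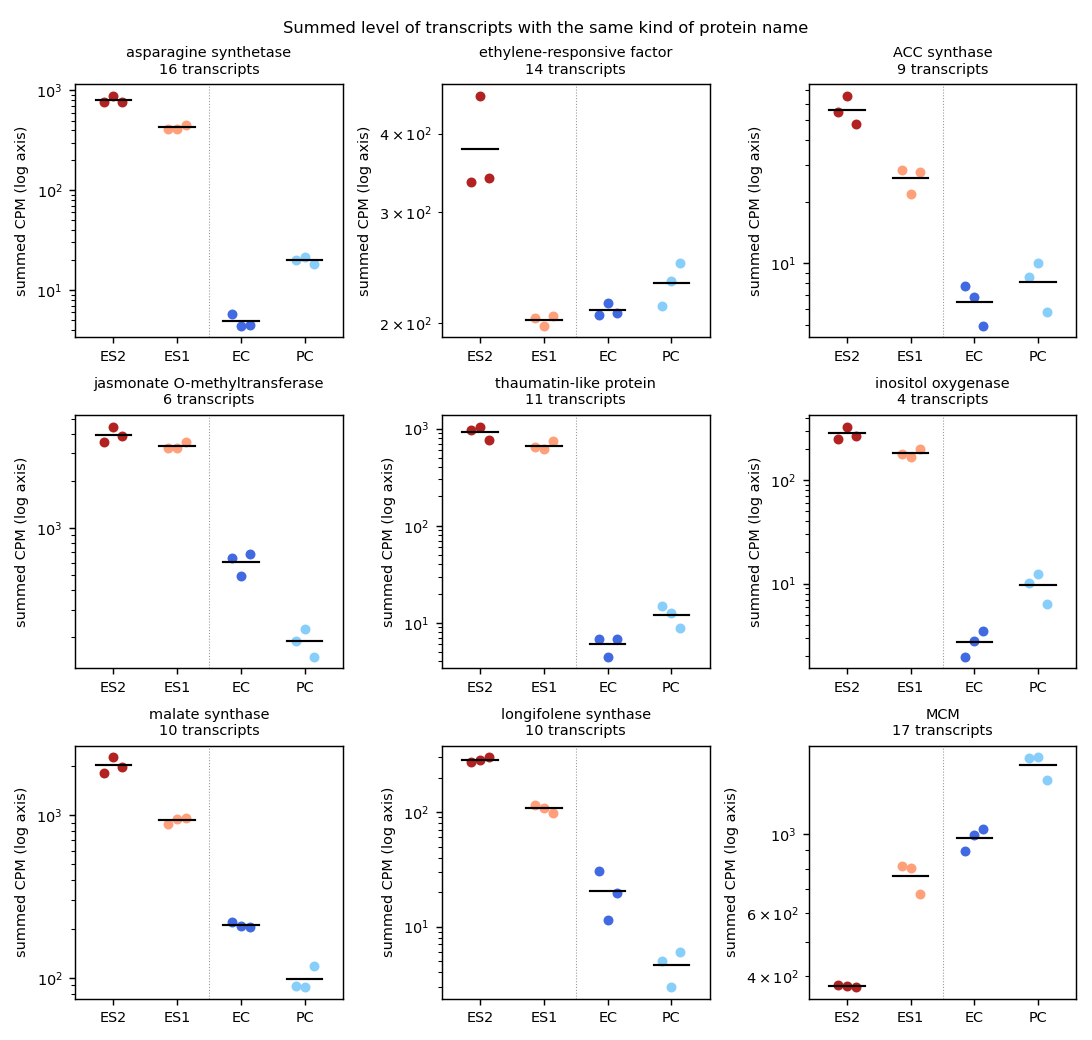
Summed CPM (log axis) of the tested transcripts with the same kind of protein name, 3 points and a bar for the mean in ES2, ES1, EC and PC. Asparagine synthetases were higher at ES2 than ES1 and lower at EC than PC, jasmonate O-methyltransferases changed most in the zygotic step, malate and longifolene synthases were higher at the later stage of both steps, and MCM proteins were lower at the later stage of both.

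Of the 771 lower interactions 486 were falls called in the somatic step and not in the zygotic step. An informative name was known for 26 of the 771, against 64 of the 480 higher ones and 1624 of the 23857 tested transcripts. Flavanone 3-hydroxylase (ppt_120253), which acts in the flavonoid pathway, had no count in ES2, against 0.496, 0.627 and 0.175 CPM in ES1, and 20.9, 13.2 and 20.9 CPM in EC, against 11.4, 11.4 and 17.2 CPM in PC. ES1 stood at least 15.2-fold above a floor of 3 counts over the ES2 libraries, while the zygotic libraries overlapped (interaction adjusted p = 0.00344 by edgeR). Inorganic pyrophosphatase 2 (ppt_131195) had 178, 145 and 149 CPM in ES2, against 564, 496 and 586 CPM in ES1, and 2.96 to 7.33 CPM in EC and 1.97 to 5.25 CPM in PC, which overlapped. Its interaction was -2.22 ± 0.45 (adjusted p = 0.0104), a somatic fall with no zygotic change past the spread of the libraries. A glycosyltransferase (ppt_95414), of the enzymes that attach sugars, had 5.24, 10.1 and 7.19 CPM in ES2, against 32, 31.9 and 28.9 CPM in ES1, and 76.1, 84.0 and 83.8 CPM in EC, against 120, 104 and 100 CPM in PC. Both pairs of stages were apart, but the zygotic change was -0.41 and the interaction -1.64 ± 0.25 (adjusted p = 0.00222). ASG7 (ppt_160370) had a mean of 1.45 CPM in ES2 and 5.47 CPM in ES1, and 37.2 CPM in EC and 40.8 CPM in PC, with an interaction of -1.78 (adjusted p = 0.0166). A peroxidase (ppt_143809), of enzymes that oxidise wall phenolics among other substrates, was a zygotic rise, with 41.0, 24.0 and 41.0 CPM in EC, against 5, 7.40 and 12.2 CPM in PC, and a mean of 129 CPM in ES2 and 91.8 CPM in ES1. Its interaction of -1.61 (adjusted p = 0.0305) lost its call in 8 of the 12 fits that left out 1 library, with adjusted p values of 0.058 (without PC replicate 1) to 0.0767 (without EC replicate 3).

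The shared rises numbered 768, with median changes of 1.43 in the somatic and 1.53 in the zygotic step. For 262 of them (34.1%) the 95% interval of the interaction lay within -1 and 1, and for the others a difference in size of 2-fold lay within that interval. An LHW-like transcript (ppt_219804), named for a basic helix-loop-helix factor of vascular development in Arabidopsis, had 12.9, 13.3 and 11.2 CPM in ES2, against 1.98, 1.25 and 1.97 CPM in ES1, and 4.61, 5.44 and 7.00 CPM in EC, against 0.802, 0.822 and 0.997 CPM in PC. The changes were 7.17-fold and 6.48-fold, and the interaction was 0.15, with a 95% interval of -0.61 to 0.91. All 4 tested LHW-like transcripts rose in both steps, as did all 3 SPL2 transcripts, named for a family of SBP-box factors. An ABC transporter of family G (ppt_47453) had 16.3, 10.8 and 16 CPM in ES2, against 2.02, 1.57 and 2.49 CPM in ES1, and 1.5, 1.19 and 0.666 CPM in EC, against 0, 0.197 and 0.166 CPM in PC. It rose in every library of both later stages, and its interaction of -0.32 had a wide interval, -1.80 to 1.15. Fatty acyl-CoA reductase (ppt_162814), which makes fatty alcohols of waxes, rose 4.31-fold in the somatic and 3.33-fold in the zygotic step. A ubiquitin-specific protease 16 (ppt_79122), of enzymes that remove ubiquitin, rose 3.40-fold and 5.28-fold, and a homolog of the splicing factor SMU2 (ppt_93487) rose 3.42-fold and 11.3-fold with an uncalled interaction (-1.72, adjusted p = 0.172).

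Malate synthases and longifolene synthases were among the transcripts that rose in both steps. Of 60 tested sugar and carbon reserve transcripts 25 rose and 2 fell in the somatic step and 18 rose and 4 fell in the zygotic step, with 14 rising in both. Somatic rises were 41.7% of the list, against 9.15% of all tested transcripts, and zygotic rises 30.0%, against 5.97%. Somatic falls were 3.33%, against 10.4%, and zygotic falls 6.67%, against 3.4%. The interaction was higher in 5 members (8.33%, against 2.01% of all tested) and lower in 0, with a median of -0.021. Malate synthases, which serve in the glyoxylate cycle when carbon from lipid is used to make sugar, made up 8 of the 14. Summed over the 10 tested, they had 1820, 2270 and 1970 CPM in ES2, against 876, 950 and 954 CPM in ES1, and 220, 209 and 204 CPM in EC, against 89.7, 87.5 and 118 CPM in PC. All 10 rose in the somatic step, by 1.07 to 1.19, close to the threshold, so that 5 rose without ES2 replicate B and 0 with library size alone. The list's somatic rises were 15 without ES2 replicate B and 11 with library size alone. Of 49 tested terpenoid transcripts 13 rose in the somatic step (7 with library size alone) and 10 in the zygotic step (26.5% and 20.4%, against 9.15% and 5.97% of all tested), 7 in both, of which 6 were longifolene synthases, which make a sesquiterpene of pine resin. Their 10 tested members summed to 273, 287 and 301 CPM in ES2, against 116, 109 and 98.1 CPM in ES1, and to 30.7, 11.4 and 19.7 CPM in EC, against 5, 2.96 and 6.06 CPM in PC. The stages were apart in both steps, and no longifolene synthase had a called interaction, with values of -1.75 to -0.09. The list had 1 higher interaction, the CYP750A27v2 above, and its median of 0.12 was -0.013 with library size alone; without PC replicate 1 there were 3 higher interactions and 3 zygotic falls in place of 1. Of the inositol oxygenases, which feed inositol into wall sugars, 3 of the 4 tested had a higher interaction. The transcript ppt_73953 had 106, 136 and 114 CPM in ES2, against 77.9, 69.9 and 80.5 CPM in ES1, and 1.10, 1.07 and 1.12 CPM in EC, against 4.10, 3.65 and 2.71 CPM in PC (interaction 2.30 ± 0.22, edgeR adjusted p = 0.000138). Aldose 1-epimerase (ppt_93791), also of this list, had a higher interaction of 1.46 with overlapping somatic libraries.

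The shared falls numbered 418, with median changes of -2.14 in the somatic and -1.69 in the zygotic step, and 61 of them (14.6%) had an interval of the interaction within -1 and 1. Pectate lyase (ppt_220398), which cleaves wall pectin, had 20.2, 46.8 and 29.6 CPM in ES2, against 553, 529 and 569 CPM in ES1, and 2.09, 1.6 and 2.88 CPM in EC, against 21.2, 20.9 and 8.47 CPM in PC. It fell by 4.09 and 2.94 on the log2 scale, and the interaction was -1.15 (95% interval -2.25 to -0.05, edgeR adjusted p = 0.203). Cytochrome P450 78A4 (ppt_55036), of a family that affects organ size in Arabidopsis, had 17.9, 21.0 and 24.8 CPM in ES2, against 174, 180 and 132 CPM in ES1, and 0.749, 1.80 and 1.30 CPM in EC, against 6.42, 6.38 and 8.42 CPM in PC. Levels were apart in both steps and the interaction was -0.51, with an interval of -1.24 to 0.21. The others named by rule were a carboxypeptidase (ppt_230083), an L-ascorbate oxidase (ppt_137043) that oxidises ascorbate in the wall space, a multicopper oxidase-like transcript (ppt_51802) and a RADIALIS-like transcript (ppt_87713), named for a snapdragon factor of flower asymmetry. They fell by 2.72 to 3.97 on the log2 scale in the somatic and by 2.74 to 4.55 in the zygotic step, with uncalled interactions of -1.23 to 1.16. All 5 tested L-ascorbate oxidases fell in both steps.

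Where transcripts changed the same way by different amounts, falls and rises differed. Of 90 falls in both steps with a called interaction 87 were larger in somatic embryos and 3 in zygotic embryos. Of 39 rises 19 were larger in somatic and 20 in zygotic embryos. The names among them were an FT-like transcript (ppt_247234) for the falls, and an LHW-like transcript (ppt_219807) and a SWEET6b sugar transporter (ppt_123492), both larger in the somatic step, for the rises.

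Cell division transcripts fell in somatic embryos, and the difference from the zygotic step was seldom called. Of 118 tested transcripts of DNA replication and cell division, 1 rose and 63 fell (53.4%, against 10.4% of all tested) in the somatic step. In the zygotic step 1 rose and 0 fell, against 5.97% and 3.4% of all tested. The interaction was higher in 2 and lower in 1 (2.54% called, against 5.24% of all tested). The zygotic changes were below 0 for 108 of the 118, as were the somatic ones, and at an adjusted p under 0.05 with no fold threshold 69 fell in the zygotic step, where 9.21% of all tested transcripts did. The median change was -1.04 in the somatic step, -0.57 in the zygotic step and -0.40 for the interaction, and for 62 members the interval of the interaction lay within -1 and 1. With library size alone 89 fell in the somatic and 5 in the zygotic step and 9 had a lower interaction, and without EC replicate 1 there were 6 lower interactions, without ES2 replicate A 4 and without ES2 replicate C 3. Without PC replicate 3, 3 members fell in the zygotic step. Cyclin-A1-1 (ppt_213216), a cyclin of the phases of DNA synthesis and mitosis, had 4.51, 3.82 and 4.78 CPM in ES2, against 15.3, 13.2 and 12.0 CPM in ES1, and 14.9, 16.8 and 16.6 CPM in EC, against 27.7, 24.6 and 25.3 CPM in PC. Both steps were apart, with changes of -1.63 and -0.68, and the interaction of -0.95 ± 0.20 (edgeR adjusted p = 0.0129) missed the fold threshold and passed it without ES2 replicate C or ES1 replicate C (-1.02 each). The 17 tested MCM transcripts, of the helicase that opens DNA for replication, summed to 379, 376 and 373 CPM in ES2, against 814, 802 and 680 CPM in ES1, and to 895, 992 and 1030 CPM in EC, against 1630, 1640 and 1420 CPM in PC. The stages of each step were apart, and 12 of the 17 fell in the somatic step and 0 in the zygotic step. The exceptions with a higher interaction were 2 DNA polymerase epsilon transcripts, of which ppt_218516 had 150, 130 and 131 CPM in ES2, against 92.0, 71.0 and 70.9 CPM in ES1, and 5.80, 6.04 and 4.42 CPM in EC, against 7.78, 6.48 and 6.81 CPM in PC (interaction 1.19 ± 0.21, adjusted p = 0.00469).

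Falls of histone and chromatin transcripts were called in the somatic step, and the interaction in 1 of them. Of 61 tested, 3 rose and 18 fell in the somatic step and 2 rose and 0 fell in the zygotic step, with 1 lower interaction, a histone H1 (ppt_170248), and a median interaction of -0.17. Somatic falls were 29.5% of the list, against 10.4% of all tested transcripts, while the somatic rises (4.92%) and zygotic rises (3.28%) were below the 9.15% and 5.97% of all tested. Zygotic falls were 0 of 61, against 3.4% of all tested, and called interactions 1.64%, against 5.24%. The zygotic changes were still below 0 for 48 of the 61, with a median of -0.455. At an edgeR adjusted p under 0.05 with no fold threshold, 28 of the 61 fell in the zygotic step, where 9.21% of all tested transcripts did. Without ES2 replicate B the somatic rises were 0 and the lower interactions 3, without ES1 replicate A or C there was 1 somatic rise, and with library size alone the somatic falls were 30. The histone chaperone ASF1B (ppt_157418), which delivers histones to new DNA, had 17.2, 16.3 and 14.2 CPM in ES2, against 48.1, 43.1 and 44.8 CPM in ES1, and 47.2, 44.7 and 51.1 CPM in EC, against 77.1, 83.9 and 77.6 CPM in PC. Its changes were -1.51 and -0.74 and its interaction -0.77 (edgeR adjusted p = 0.00732), under the fold threshold. Chromatin assembly factor 1 subunit A-B (ppt_120156) had an interaction of -0.99 (adjusted p = 0.0172), which was between -1.04 and -1.13 without ES2 replicate B, ES1 replicate C, EC replicate 1 or PC replicate 1.

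**Figure D4:**
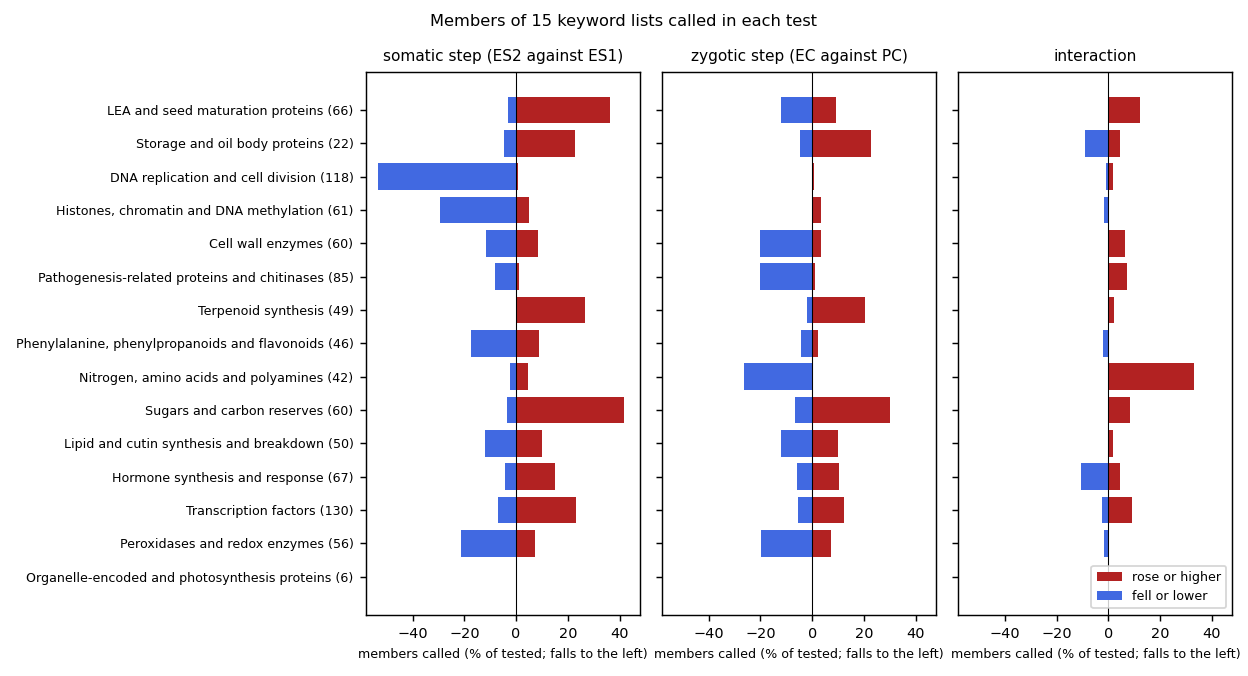
Percent of tested members of 15 keyword lists called in the somatic step, the zygotic step and the interaction, with rises or higher interactions in red to the right of 0 and falls or lower interactions in blue to the left. DNA replication and cell division has the longest bar of falls in the somatic step (63 of 118), and nitrogen metabolism the longest bar of higher interactions (14 of 42).

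In the remaining lists the share of members with a called interaction was 6.67% for cell wall enzymes, 2.0% for lipid and cutin, 2.17% for phenylpropanoid and 1.79% for redox transcripts, against 5.24% of all tested transcripts. Of 60 tested cell wall enzymes 4 had a higher interaction, 3 beta-galactosidases and an expansin, a wall-loosening protein, with a median interaction of -0.0076, and without PC replicate 3 the number was 8, with 5 lower ones beside them. In the somatic step 5 rose and 7 fell, with 8 rises without ES2 replicate A or ES1 replicate B. Somatic rises were 8.33% of this list and somatic falls 11.7%, against 9.15% and 10.4% of all tested transcripts. In the zygotic step 2 rose (3.33%, against 5.97% of all tested) and 12 of 60 fell, against falls of 3.4% of all tested. Expansin-B17 (ppt_217289) had 43.7, 48.2 and 42.4 CPM in ES2, against 13.8, 10.7 and 12.5 CPM in ES1, and 1.51 to 1.70 CPM in EC and 1.14 to 1.99 CPM in PC (interaction 1.89 ± 0.27, edgeR adjusted p = 0.0013). A beta-galactosidase (ppt_242151) had 20.4 to 22.6 CPM in ES2 and 18.2 to 20.6 CPM in ES1, and 0.0971 to 0.213 CPM in EC against 0.554 to 1.48 CPM in PC (interaction 2.83, adjusted p = 0.00296). Among 50 tested lipid and cutin transcripts 1 had a higher interaction, a CYP78A141v1 transcript (ppt_161403) with 1.74, and the list's median was 0.28. In this list 5 rose (10.0%) and 6 fell (12.0%) in each step. Of all tested transcripts 9.15% rose and 10.4% fell in the somatic step, and 5.97% and 3.4% in the zygotic step. Without EC replicate 1, PC replicate 1 or PC replicate 2 the list's zygotic rises were 3, 3 and 2. The WRI1-like factor (ppt_105911), an activator of seed oil synthesis in Arabidopsis, had 35.6, 47.1 and 36.3 CPM in ES2, against 23.5, 24.8 and 20.3 CPM in ES1, and 83.6 to 102 CPM in EC and 75.0 to 91.0 CPM in PC, with an uncalled interaction of 0.63 (adjusted p = 0.0671). Of 46 phenylpropanoid and flavonoid transcripts and 56 peroxidases and redox enzymes, 1 each had a lower interaction, the flavanone 3-hydroxylase and the peroxidase described above, with list medians of -0.13 for the first list and 0.24 for the second. Among the phenylpropanoid transcripts 4 rose and 8 fell in the somatic step, against 1 and 2 in the zygotic step, and among the redox enzymes 4 rose and 12 fell in the somatic step, against 4 and 11 in the zygotic step. Somatic falls were 17.4% of the phenylpropanoid and 21.4% of the redox list, against 10.4% of all tested transcripts, and zygotic falls 4.35% and 19.6%, against 3.4%. Somatic rises were 8.7% and 7.14%, against 9.15%, and zygotic rises 2.17% and 7.14%, against 5.97%. The somatic phenylpropanoid falls were 5 without ES1 replicate A or C, and without ES2 replicate B there were 3 lower interactions, 2 somatic rises and 5 zygotic falls. The somatic phenylpropanoid rises were also 2 without ES1 replicate A, and the zygotic rises 4 without PC replicate 3. The zygotic redox falls were 7 without EC replicate 3, the somatic redox rises 7 without ES1 replicate B, and without PC replicate 3 the redox interactions were 4 higher and 4 lower. With library size alone 2 redox transcripts rose and 20 fell in the somatic step.

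Of 63 transcription factors and chromatin proteins that the study listed as hubs, 55 were tested here. The interaction was called in 1 of the 55, MYB30 (1.82%, against 5.24% of all tested), with a median of 0.02. In the somatic step 2 of the 55 rose and 5 fell, and in the zygotic step 0 rose and 6 fell. Of all tested transcripts 9.15% rose and 10.4% fell in the somatic step, and 5.97% and 3.4% in the zygotic step. The rule named 12 of the hub factors. ERF012 (ppt_3095) fell in the somatic step, with 2.85, 2.65 and 1.92 CPM in ES2, against 7.38, 10.2 and 9.93 CPM in ES1, and had 15.9, 20.4 and 17.4 CPM in EC, against 25.7, 23.2 and 45.2 CPM in PC (interaction -1.08, edgeR adjusted p = 0.0911). High mobility group B protein 7 (ppt_230048) fell in the somatic step by 1.10 on the log2 scale with a zygotic change of -0.79, and its interaction was -0.31 with a 95% interval of -0.80 to 0.18. A NAC transcript (ppt_58155) fell in the zygotic step, with 1.34, 1.63 and 1.12 CPM in EC, against 4.32, 4.01 and 2.22 CPM in PC, and had a somatic change of -0.41 (interaction 0.94, adjusted p = 0.0775). For the other 8 of the 12, neither step nor the interaction was called.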

How the data were processed

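RNA from 12 embryo libraries (ES2, ES1, EC and PC, 3 each) was sequenced as paired reads on an Illumina NovaSeq. Per the labels and the study's methods, the authors trimmed reads with SeqTrimBB (quality above 20), mapped them with BWA to the maritime pine transcriptome and deposited whole-number counts per transcript made with sam2counts. In a separate step the study extended that transcriptome with an assembly of its own reads (Trinity 2.11, CD-HIT-EST, Mira). The sources used here do not give the other versions or how reads that match several transcripts were treated. Splitting of such reads makes transcripts of 1 name uncertain.

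The counts as deposited were fitted with edgeR 4.0.16 (R 4.3.3, limma 3.58.1): TMM scaling, 1 mean per group over 12 libraries, quasi-likelihood tests (two-sided) of ES2 minus ES1, EC minus PC and their difference, with Benjamini-Hochberg adjustment over 23857 transcripts above 2 CPM in at least 3 libraries. A call needed an adjusted p under 0.05 and a log2 value above 1 or below -1. DESeq2 1.42.0, other scalings, filters, thresholds, left-out libraries, a replicate block and summed names were alternatives. Replicates differed by more than sampling noise (chi-square per degree of freedom 12.49 to 54.69), which does not tell biological from technical replicates. Each library was counted as 1 sample. Intervals cover 95%. Library totals were 22725467 to 40755797 counts, which sets a floor of 3 counts over a group, 0.0288 CPM in EC and 0.0298 CPM in ES2.

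Members, the 15 keyword lists (LEA and seed maturation, storage and oil bodies, DNA replication and cell division, histones and chromatin, cell wall, pathogenesis-related, terpenoid, phenylpropanoid, nitrogen, sugars, lipid and cutin, hormones, transcription factors, peroxidases and redox, organelle) and the rules were chosen with earlier results of these data known. Named transcripts had an informative protein name and at least 10 CPM in the highest group mean. They were, 1 per protein name, the 6 with the largest interaction among opposite calls and among interactions with 1 called step in each direction, the 6 shared rises and falls with the largest value of the smaller change, the 2 members of each list with the lowest interaction p, and the hub factor of each family with the lowest interaction p. For transcripts without a name the 2 largest interactions of each direction were taken. Other transcripts named, and the protein families, were chosen after their values were seen.

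Tested on simulated data (23857 transcripts, 50 per fold size), the interaction called 37 at 4-fold, 47 at 8-fold, 31 at 0.25-fold and 45 at 0.125-fold, and 5 of 23657 unchanged ones. The changed transcripts were drawn from those with a mean count above 50, had equal means in the other groups and were changed in ES2 alone. Changes between traces in zygotic embryos were therefore not covered.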

Additional observations from a re-analysis of the deposited data

Results flagged for a closer look

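The changes of the 2 steps differed by the interaction test itself in 32 transcripts named by rule, given here as the interaction in log2 units (somatic minus zygotic change). Among LEA and storage proteins it was 5.47 in ppt_115979, 4.22 in ppt_93454, 2.64 in ppt_251913 and 2.73 in the 2S globulin ppt_123612, and -1.63 in the basic 7S globulin ppt_80005. In nitrogen and sugar metabolism it was 2.51, 3.41 and 4.22 in the asparagine synthetases ppt_51012, ppt_140063 and ppt_140067, 2.30 in the inositol oxygenase ppt_73953 and 1.46 in the aldose 1-epimerase ppt_93791. In defence and phosphate genes it was 6.25 in ginkbilobin-2 ppt_126365, 4.74 in endochitinase B ppt_220543, 3.85 in the class IV chitinase ppt_110024, 2.26 in thaumatin-like protein ppt_53320 and 4.59 in purple acid phosphatase ppt_126274. In cell wall, cytochrome P450 and replication genes it was 2.83 in the beta-galactosidase ppt_242151, 1.89 in expansin-B17 ppt_217289, 4.29 in CYP750A27v2 ppt_100065 and 1.19 in DNA polymerase epsilon ppt_218516. Among transcription factors it was 6.62 in MYB30 ppt_241345, 1.93 in the ethylene responsive factor ppt_109019 and 1.23 in the basic helix-loop-helix transcript ppt_69105.

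On the lower side it was -7.30 in flavanone 3-hydroxylase ppt_120253, -2.22 in inorganic pyrophosphatase ppt_131195, -1.78 in ASG7 ppt_160370, -1.64 in the glycosyltransferase ppt_95414, -1.61 in the peroxidase ppt_143809 and -1.43 in the jasmonate O-methyltransferase ppt_168568. The 4 without a name were ppt_225673 with 8.96, ppt_183271 with 6.49, ppt_194190 with -7.22 and ppt_126843 with -5.44. The values of ppt_241345, ppt_225673 and ppt_183271, with no count in EC, and of ppt_120253 and ppt_194190, with no count in ES2, depend on the prior count of the fit and are no bounds. Their other stage stood above the floor of 3 counts over the group by at least 7.02-fold, 75.4-fold, 12.3-fold, 15.2-fold and 18.1-fold, in that order. The call of ppt_126843, with 13.5, 0.243 and 17.7 CPM in EC and 0.247, 0.428 and 0.277 CPM in PC, was lost in 7 of the 12 fits that left out 1 library.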

How the results depend on the processing

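The sign of the interaction changed in 0 of the 1251 called transcripts under any alternative in which the same transcript was tested. The 1251 were picked by calls on these same libraries, so an unchanged sign adds no support. Stricter filters dropped some of the 1251, and with summed names the 90 with an informative name were left out of this comparison. Of those calls 706 (56.4%) were kept in each of the 12 fits that left out 1 library. Counts were within 1.5 times under the filters of 6 libraries, 1 CPM or none, DESeq2 size factors and summed names. Library size alone gave 1353 somatic rises, 473 shared rises and opposite calls in 16 (rose in somatic) and 14 (rose in zygotic). DESeq2 gave 734 higher interactions, 195 with different sizes and 12 opposite calls that rose in zygotic embryos, and edgeR's likelihood ratio test 727, 203 and 21. Testing against a 2-fold change (glmTreat) gave 68 higher and 90 lower interactions, 532 rises and 1067 falls in the somatic step, 296 and 140 in the zygotic step, 90 shared rises, 75 shared falls, 2 with different sizes, 138 called in 1 step and 1 and 0 opposite calls. With no fold threshold there were 803 higher interactions, 4572 rises and 4446 falls in the somatic step, 2682 and 2198 in the zygotic step, 1691 shared rises, 1228 shared falls, 495 with different sizes and 79 and 46 opposite calls. An adjusted p under 0.01 gave 209 higher and 361 lower interactions, 535 zygotic falls, 49 with different sizes, 460 called in 1 step and 12 and 2 opposite calls. All 18 libraries in the fit gave 242 higher and 481 lower interactions, 56 with different sizes, 586 called in 1 step and 3 opposite calls that rose in zygotic embryos. A filter of 2 CPM in 3 libraries of each embryo type, chosen after seeing the data, gave 507 zygotic falls, 269 shared falls and 12 and 1 opposite calls; it tests fewer transcripts. For the other differences the cause was not tested.

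Without 1 library, higher interactions numbered 359 to 503, lower ones 580 to 898, somatic rises 1897 to 2274, somatic falls 2308 to 2678, zygotic rises 1077 to 1500, zygotic falls 666 to 876, shared rises 624 to 778, shared falls 355 to 446, different sizes 96 to 153, calls in 1 step 736 to 1064, and opposite calls 17 to 31 (rose in somatic) and 3 to 13 (rose in zygotic). Whether replicate numbers pair the samples could not be told. Deviations of same-numbered libraries correlated with r of -0.424 to 0.348, and those of differently numbered ones with r of -0.417 to 0.582. Deviations from a mean of 3 libraries are not independent, so these values cannot exclude pairing. A replicate block gave 318 higher and 528 lower interactions, of which 299 and 497 were shared with the fit without it. Of the 32 called named transcripts 27 kept their call without any 1 library. Of the 32, glmTreat kept 15, all 18 libraries 23, an adjusted p under 0.01 23, summed names 26 and the block 28, and 13 were tested at all when 3 libraries of each embryo type had to pass 2 CPM (13 kept). The sign of the uncalled interaction turned in ppt_47453 (0.29) and ppt_137043 (-0.68) with summed names and in ppt_211616 (-0.051) with library size alone. Without 1 library it ranged over -0.18 to 0.22 in ppt_211616, -0.78 to 0.24 in ppt_47453, -0.24 to 1.31 in ppt_226590, -0.043 to 0.33 in ppt_219804 and -1.07 to 0.21 in ppt_230083.

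The median standard error of the interaction was 0.325 on the log2 scale, so a 2-fold difference was often within the error, and 10012 of 23857 transcripts had a 95% interval within -1 and 1. Falls between traces in zygotic embryos rest on few counts.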
